A study of Mus musculus with 40 samples.

Results

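The addition of the peptide 7aaRGD to an anti-PD-1 antibody was examined in CD11b+ cells sorted from the brain hemispheres of mice that bore GL261 gliomas, at 28 days post implantation (DPI). The comparison used 6 of the 40 samples of the series: 3 that received the peptide with the antibody (RGD + aPD-1) and 3 that received the antibody alone (aPD-1). These are the samples of both groups that carry RGD+aPD1 or aPD1 in the column names of the 28 DPI table of CD11b+ cells, each matched to its label, and sample 4 of each group was not analysed here. The same table holds 4 vehicle and 4 RGD samples, 14 samples in all, which shared the estimate of the spread and gave the effect of the peptide in the absence of the antibody. The study paired the peptide with the antibody to ask whether integrin blockade changes the response to PD-1 blockade. RNA was measured by strand-specific poly-A RNA-seq, with 1 mouse per sample.

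GL261 is a mouse glioma cell line, and here the cells carried tdTomato and luciferase. All 4 groups had an osmotic pump that delivered into the tumor for 28 days. In the aPD-1 group the pump held water, and anti-PD-1 was injected intraperitoneally at 10 mg/kg, 4 times between day 8 and day 14. The RGD + aPD-1 group received the same injections, with 7aaRGD at 2 mg/ml in the pump. The vehicle group received water and control IgG, and the RGD group received 7aaRGD and control IgG. The study describes the mice as C57BL/6 males of 10 to 12 weeks, whereas the sample titles call them nude mice. It also states that the joint effect of checkpoint inhibitors and 7aaRGD could not be studied in immunodeficient animals. The study's description is therefore followed here, and the values did not settle the point. The treatment field of aPD-1 samples 2 and 3 names Anti-PD-2 and Anti-PD-3 where their titles name Anti-PD-1, and the combination is titled RGD+Anti-PD-1+RGD. The groups follow the titles.

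Integrins are receptors for matrix proteins, and a subset of them, αvβ3 and αvβ5 among these, binds the short motif arginine-glycine-aspartate (RGD) in osteopontin (Spp1), fibronectin and related ligands. A soluble RGD peptide competes for that site. PD-1 is an inhibitory receptor of activated T cells, and its main ligand, PD-L1 (Cd274), is made by tumor cells and by myeloid cells. CD11b+ cells of a mouse glioma are mostly resident microglia and macrophages derived from blood monocytes, known to take up matrix-remodeling and immunosuppressive programs in the tumor, while interferon gamma from T and NK cells pushes them toward antigen presentation, nitric oxide and inflammatory cytokines.

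Values are RPKM (reads scaled by gene length and by library size), obtained by taking off a constant of 2 from the deposited numbers, and differences are log2(RPKM + 1) of RGD + aPD-1 minus aPD-1, which understates the change of low genes. Read depth cannot be read from these values. Itgam, which encodes CD11b itself, was present in every sample at 67.8 to 76.2 RPKM with aPD-1 and at 76.3 to 81.8 RPKM with RGD + aPD-1, and the summed level of 7 pan-myeloid genes was 3168 to 3323 against 3183 to 3406 RPKM. Correlations of log2 values between samples were 0.978 to 0.989 within aPD-1 and 0.99 to 0.992 within RGD + aPD-1. On the first principal component of the 14 samples, which held 53.1% of the variance, aPD-1 samples 1, 2 and 3 scored 15.5, 15.7 and 7.68, and RGD + aPD-1 samples 1, 2 and 3 scored 30.0, 24.3 and 26.7. All 8 vehicle and RGD samples scored below 0. Thus aPD-1 sample 3 stood nearest to the groups without antibody. In bulk RNA, fewer cells of a type and less RNA per cell cannot be told apart.

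Of 9741 protein-coding genes whose mean over the 14 samples reached 1 RPKM, 4 passed an adjusted p of 0.05 (limma, Benjamini-Hochberg). They were 2 genes that rose with RGD + aPD-1 (0.0205% of the genes tested) and 2 that fell (0.0205%). At an unadjusted p under 0.05, 386 genes were higher (3.96%) and 1074 were lower (11%), so that 73.6% of these were lower. The median difference over all genes was -0.04, and 61.1% of all genes were lower, the share against which the counts of lower members of each list can be read. With median-of-ratios scaling the split became 678 higher and 674 lower, 49.9% lower, with a median of 0.0026. In 607 genes (6.23%) all 3 combination samples lay above all 3 aPD-1 samples, and in 1488 genes (15.3%) all lay below. The 4 calls depended on the spread shared by the 14 samples: fitted on the 6 samples alone, no gene passed, with 457 higher and 1003 lower genes at an unadjusted p under 0.05.

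Of the 2 genes that rose, the larger difference was that of Tnfrsf9 (ENSMUSG00000028965.13, mm10 chr4:150914562-150946102, plus strand), which encodes 4-1BB (CD137), a costimulatory receptor best known on activated T and NK cells. It stood at 1.19, 2.75 and 1.22 RPKM in aPD-1 samples 1 to 3 and at 13.7, 4.86 and 8.56 RPKM in RGD + aPD-1 samples 1 to 3. The groups did not overlap, and the means were 1.72 ± 0.896 and 9.03 ± 4.42 RPKM (SD, n = 3 each). Its log2 difference was 1.83 (SE 0.27, adjusted p = 0.0349, limma). In the groups without antibody Tnfrsf9 was low throughout, with means of 0.448 RPKM in vehicle and 0.318 RPKM in RGD. Without the RGD + aPD-1 samples its mean is under 1 RPKM, so it reached the level tested through the group where it is high. With no filter on low values its adjusted p was 0.0473 (limma).

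Dpysl2 (ENSMUSG00000022048.8, chr14:66802864-66868688, minus strand) encodes CRMP2, a protein that binds tubulin and regulates the cytoskeleton. Its levels were 12.2, 11.4 and 11.1 RPKM with aPD-1 against 16.4, 17.3 and 16.1 RPKM with RGD + aPD-1, a narrow range in each group with a clear gap between them. The log2 difference was 0.49 (SE 0.058, adjusted p = 0.0108). Dpysl2 was also higher in RGD (mean 11 RPKM) than in vehicle (9.29 RPKM), by 0.22 with an adjusted p of 0.0645.

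Of the genes that fell, Ssbp4 (ENSMUSG00000070003.7, chr8:70597490-70608872, minus strand), a member of the single-stranded DNA binding protein family, went from 40.2, 39.8 and 44.4 RPKM to 28.9, 30.5 and 28.6 RPKM. Its log2 difference was -0.48 (SE 0.065, adjusted p = 0.0196). Mrps34 (ENSMUSG00000038880.13, chr17:24895116-24897502, plus strand), a protein of the small subunit of the mitochondrial ribosome, went from 13, 12.9 and 13.3 RPKM to 8.53, 10.3 and 8.98 RPKM, by -0.46 (SE 0.072, adjusted p = 0.0498). Neither gene overlapped between the groups. Each call was lost when certain single samples were left out. Dpysl2 lost its call without aPD-1 sample 3 (adjusted p = 0.0803), RGD + aPD-1 sample 1 (0.0755) and RGD + aPD-1 sample 3 (0.0548). Tnfrsf9 lost it without aPD-1 samples 1 and 3 (0.092 and 0.0989) and RGD + aPD-1 samples 1 and 3 (0.077 and 0.178). Ssbp4 lost it without the same 4 samples (0.058, 0.0803, 0.077 and 0.133), and Mrps34 kept it in 1 of 6 cases, without RGD + aPD-1 sample 2 (0.0176). No direction changed.

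**Figure D1:**
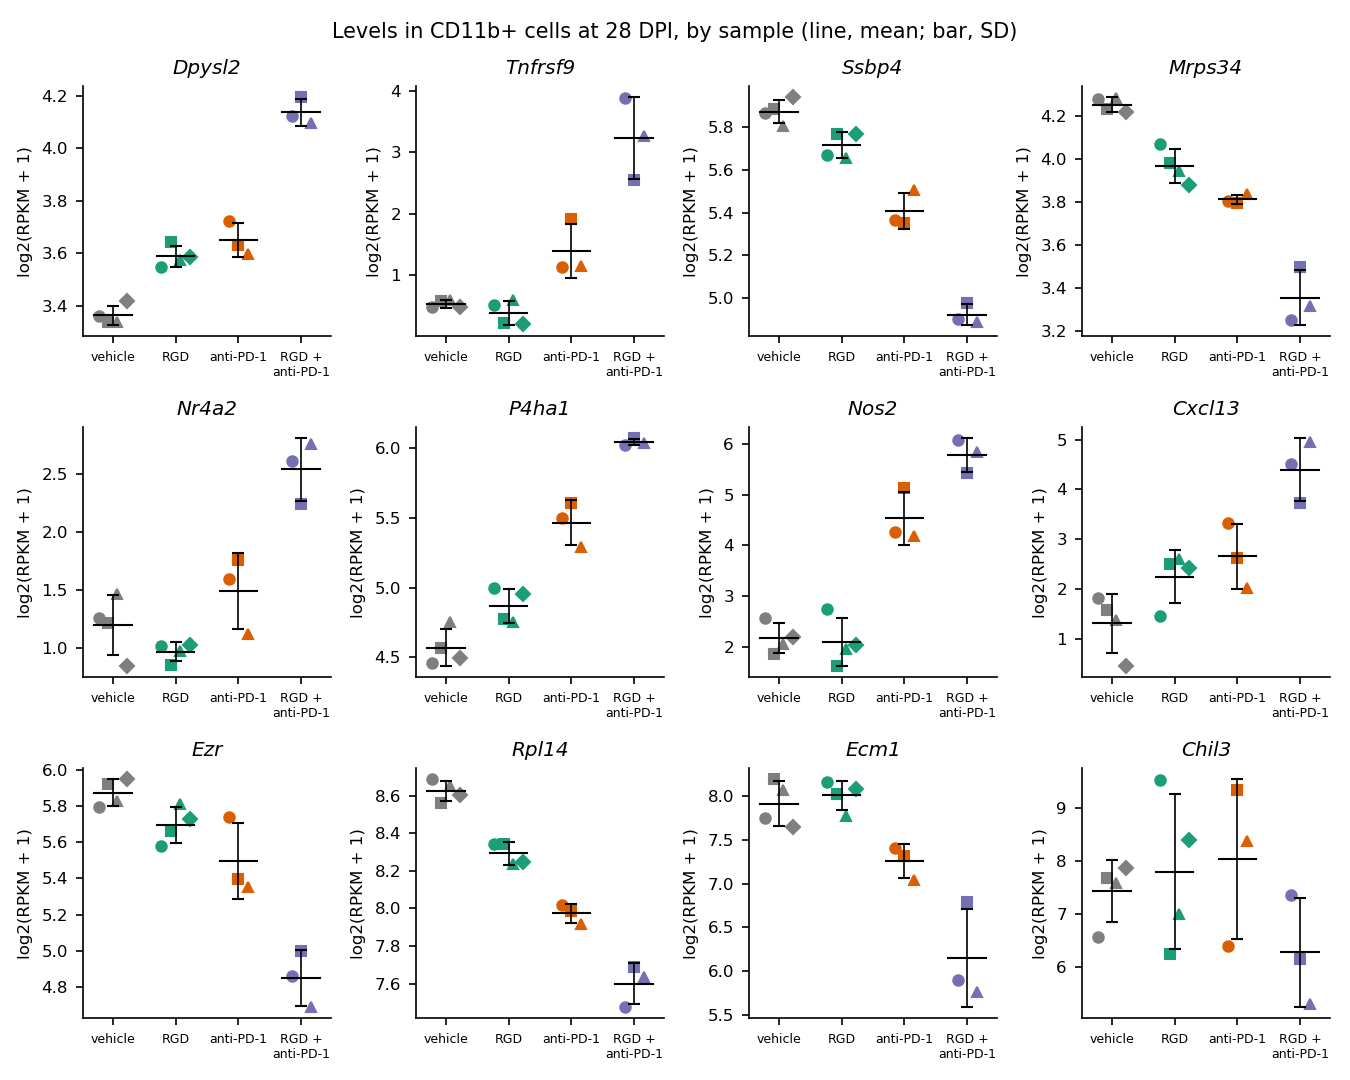
Level of 12 named genes in each CD11b+ sample (points, log2(RPKM + 1) on the vertical axis; circle, square, triangle and diamond mark samples 1 to 4), by group: vehicle (n = 4), RGD (n = 4), aPD-1 (n = 3) and RGD + aPD-1 (n = 3), with a line at the group mean and a bar of 1 SD to each side. Tnfrsf9 lies between 4.86 and 13.7 RPKM in RGD + aPD-1 and at or below 2.75 RPKM in every other sample.

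The genes next in order of p did not pass, and their values are given as description. Nr4a2, an orphan nuclear receptor induced within minutes of cell activation, stood at 2.03, 2.38 and 1.18 RPKM with aPD-1 and at 5.14, 3.74 and 5.80 RPKM with RGD + aPD-1 (1.05, SE 0.18, adjusted p = 0.0529). P4ha1, a prolyl hydroxylase needed for collagen folding, stood at 44.2, 47.8 and 38.2 against 64.2, 66.3 and 64.8 RPKM (0.58, SE 0.099, adjusted p = 0.0529). Eng (endoglin), a co-receptor for TGF-beta family ligands, stood at 27.4, 27.6 and 28.8 against 38.9, 36.4 and 43.9 RPKM (0.49, adjusted p = 0.0639). None of the 3 overlapped between the groups. Ptpro, a receptor-type tyrosine phosphatase, differed by 0.53, and Ero1l, an oxidase of disulfide formation in the endoplasmic reticulum, by 0.54. Their adjusted p values were 0.0608 and 0.068.

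Among the lower genes, Ezr encodes ezrin, which links the plasma membrane to actin. It stood at 52.4, 41.2 and 39.9 RPKM with aPD-1 and at 28.0, 31.0 and 24.8 RPKM with RGD + aPD-1 (-0.65, SE 0.11, adjusted p = 0.0529). Ecm1, a secreted matrix protein, stood at 169, 158 and 131 against 58.7, 110 and 53.5 RPKM (-1.10, SE 0.23, adjusted p = 0.068). In both genes the groups did not overlap, and for Ecm1 sample 2 of the combination was the nearest to the aPD-1 samples. The first 15 lower genes included the cytosolic ribosomal proteins Rpl14, Rpl32, Rpl36 and Rpl29, with differences of -0.38, -0.35, -0.34 and -0.32.

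The study's text names 10 genes as higher with RGD + aPD-1 than with aPD-1, chosen on these same samples, so their direction is not independent evidence. All 10 were higher here and 10 had an unadjusted p under 0.05 (3.96% of all genes), but only Tnfrsf9 passed the adjusted test. In 9 of the 10 the groups did not overlap (6.23% of all genes), and the median difference was 1.03 against -0.04 over all genes tested. Nos2, the inducible nitric oxide synthase of inflammatory macrophages, stood at 18.3, 34.1 and 17.2 RPKM against 65.9, 41.8 and 56.4 RPKM (1.25, SE 0.29, adjusted p = 0.0843). Ptgs2, or COX-2, which makes the precursor of prostaglandins, stood at 13.6, 20.6 and 5.55 against 40.8, 24.6 and 56.2 RPKM (1.63, SE 0.40, adjusted p = 0.0902). For both genes RGD + aPD-1 sample 2 was the closest to the aPD-1 samples.

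Cxcl13, a chemokine that attracts B cells and some T cells, stood at 9.06, 5.15 and 3.07 RPKM with aPD-1 and at 21.8, 12.2 and 30.1 RPKM with RGD + aPD-1 (1.74, SE 0.42, adjusted p = 0.0894). Il1b, the inflammasome-processed cytokine interleukin-1 beta, was the gene of the list whose groups overlapped, at 201, 250 and 98.7 against 448, 217 and 453 RPKM (1.04, SE 0.37, adjusted p = 0.214). Ass1, which regenerates arginine from citrulline for nitric oxide synthesis, stood at 90.1, 111 and 62.6 against 173, 137 and 117 RPKM (0.71, adjusted p = 0.124). Other members were Ccrl2, a receptor that presents chemerin (0.81, adjusted p = 0.228), Slc2a1, the glucose transporter GLUT1 (0.55, adjusted p = 0.176), and Upp1, uridine phosphorylase. Upp1 stood at 11.6, 11.1 and 7.93 against 27.2, 15.8 and 23 RPKM (1.02, SE 0.21, adjusted p = 0.068). Leaving out each of the 6 samples in turn left the median of the list between 0.77, without aPD-1 sample 3, and 1.31, without RGD + aPD-1 sample 2.

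The study names 8 genes as lower, again chosen on these samples. All 8 were lower here, 3 with an unadjusted p under 0.05 (11% of all genes), and none passed the adjusted test. In 2 of them, Ecm1 and Ocstamp, the groups did not overlap (15.3% of all genes). The median was -1.02. Several of the others rested on widely scattered aPD-1 samples. Chil3, a chitinase-like protein of monocytes and alternatively activated macrophages, stood at 82.8, 654 and 331 RPKM with aPD-1 and at 163, 70.1 and 38.3 RPKM with RGD + aPD-1 (-1.77, SE 0.84, adjusted p = 0.345). Fkbp5, a co-chaperone of the glucocorticoid receptor and one of its target genes, stood at 5.98, 24.3 and 44.6 against 5.71, 8.46 and 6.06 RPKM (-1.39, SE 0.51, adjusted p = 0.225). In both, aPD-1 sample 1 lay within the range of the combination samples. Ocstamp, which takes part in fusion of osteoclasts and macrophages, stood at 13, 19.5 and 11 against 5.15, 10.1 and 5.14 RPKM (-1.01, SE 0.34, adjusted p = 0.185). Mrc1 (the mannose receptor CD206), Ms4a7, Vcan and Ccl8 differed by -0.39, -0.51, -0.48 and -1.02, all with overlapping groups.

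Genes of glycolysis and of the response to low oxygen were higher with RGD + aPD-1 across the list. These genes encode the enzymes that convert glucose to lactate and the known targets of the oxygen-sensitive factor HIF-1. Of 27 tested members of 28, all 27 were higher, 18 with an unadjusted p under 0.05 (3.96% of all genes) and 15 without overlap between the groups (6.23% of all genes). None passed the adjusted test. The median difference was 0.38, and between 0.29 and 0.48 when 1 sample was left out, with 9 members at an unadjusted p under 0.05 without aPD-1 sample 3.

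Of the most highly expressed members, Aldoa (aldolase) stood at 431, 496 and 357 RPKM with aPD-1 and at 541, 516 and 474 RPKM with RGD + aPD-1 (0.26, adjusted p = 0.335). Gapdh and Pkm differed by 0.12 and 0.11, and in all 3 genes the groups overlapped. Larger differences were seen in members named here after their values were seen. Hif1a itself stood at 60.3, 52.7 and 51.7 against 101, 65.8 and 83.1 RPKM (0.57, adjusted p = 0.0843). Pgk1 (phosphoglycerate kinase) stood at 79.0, 77.3 and 62.6 against 114, 97.6 and 95.3 RPKM (0.48, adjusted p = 0.086), and Tpi1 (triose phosphate isomerase) at 159, 147 and 118 against 221, 187 and 185 RPKM (0.48, adjusted p = 0.108). Vegfa, the main growth factor of new vessels, stood at 11, 13.9 and 6.07 against 30.6, 22.2 and 29.8 RPKM (1.39, SE 0.50, adjusted p = 0.222). In each of these 4 genes every combination sample was above every aPD-1 sample.

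The core letters of the element bound by HIF-1, ACGTG or its reverse complement CACGT, were looked for in the 250 bases before the annotated starts (RefSeq, GRCm38.p6, both strands, all starts of a gene). Of the 27 tested members, 26 had such a window, and 17 of these (65.4%) held the core. For comparison, 2105 of 7936 tested genes with a window (26.5%) held it, as did 18.5% of all 27025 genes with a window in the RefSeq set. The list holds known HIF-1 targets by choice, so its higher share is no evidence about these samples. The 5 letters also occur by themselves in the E-box and other elements, and several members, Upp1, Tpi1 and Gapdh among them, held none in this window. Upp1, both among the first higher genes and named by the study, is not shown. The 100 bases before the start of P4ha1 and Ero1l, which are among the first higher genes, and of Slc2a1, which the study names, are shown with the core in capitals. They are 5′ to 3′ on the strand of the gene, at chr10:59323196-59323295 (plus strand), chr14:45318573-45318672 (minus strand) and chr4:119108645-119108744 (plus strand). The core lay 16 to 12 bases before the start in P4ha1, 63 to 59 in Ero1l and 36 to 32 in Slc2a1. A match describes letters only, not binding.
P4ha1: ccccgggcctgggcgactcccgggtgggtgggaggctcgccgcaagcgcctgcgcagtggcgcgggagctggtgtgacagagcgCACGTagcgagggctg
Ero1l: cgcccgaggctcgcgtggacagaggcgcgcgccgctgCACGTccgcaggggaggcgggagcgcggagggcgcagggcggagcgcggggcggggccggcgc
Slc2a1: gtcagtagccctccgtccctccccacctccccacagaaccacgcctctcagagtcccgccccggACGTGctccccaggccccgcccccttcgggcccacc

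**Figure D2:**
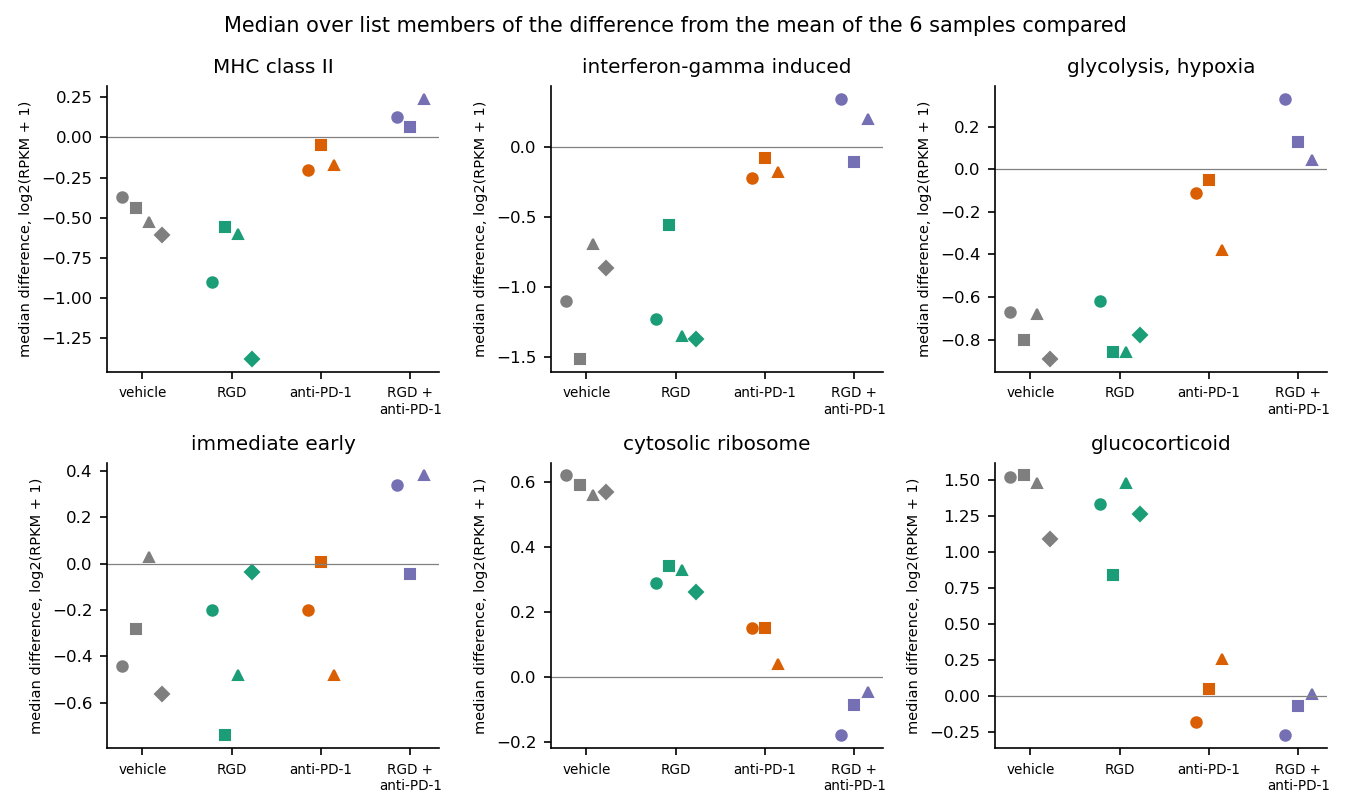
Level of each gene list in each CD11b+ sample, as the median over its tested genes of the difference from the gene's mean over the 6 aPD-1 and RGD + aPD-1 samples (log2(RPKM + 1) scale; circle, square, triangle and diamond mark samples 1 to 4), by group: vehicle and RGD (n = 4 each), aPD-1 and RGD + aPD-1 (n = 3 each). For glycolysis the 3 RGD + aPD-1 samples lie at 0.33, 0.13 and 0.045 and the aPD-1 samples at -0.11, -0.049 and -0.38.

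Immediate early genes are transcription factors and regulators switched on within minutes of stimulation, without new protein synthesis. Of 20 tested, 18 were higher with RGD + aPD-1, 7 with an unadjusted p under 0.05 (3.96% of all genes) and 7 without overlap (6.23% of all genes); the same shares apply to the higher counts of the lists that follow. The median was 0.45, and 0.34 to 0.58 with 1 sample left out. Fos, a subunit of AP-1, stood at 218, 259 and 143 RPKM with aPD-1 and at 327, 274 and 415 RPKM with RGD + aPD-1 (0.73, SE 0.20, adjusted p = 0.118), with no overlap. Egr2, named after its value was seen, stood at 14.8, 25.0 and 17.9 against 43.9, 29.5 and 33.7 RPKM (0.87, adjusted p = 0.161). Cells were dissociated and sorted before RNA extraction, and genes of this kind are known to respond to such handling. The part of handling in these values was not tested. Heat shock genes, which handling can also move, were higher in 12 of 15, with 5 at an unadjusted p under 0.05, no gene without overlap and a median of 0.16. The median was 0.25, 0.086 and 0.29 without aPD-1 sample 1, aPD-1 sample 3 and RGD + aPD-1 sample 1. Hspa1a, picked after its value was seen, stood at 7.30, 4.76 and 1.45 against 6.43, 24.1 and 49.6 RPKM (2.11, adjusted p = 0.112), so that samples 2 and 3 of the combination were high and sample 1 was not. Hspa1a and its near-identical copy Hspa1b may share reads.

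MHC class II molecules present peptides to CD4+ T cells, and their genes are controlled by Ciita. All 10 tested members of 11 were higher with RGD + aPD-1, 3 with an unadjusted p under 0.05 and 6 without overlap, and none passed the adjusted test. The median difference was 0.30, with 0.25 to 0.34 when 1 sample was left out. Cd74, the invariant chain and one of the most abundant transcripts, stood at 9997, 10785 and 10167 RPKM with aPD-1 and at 12368, 12062 and 13791 RPKM with RGD + aPD-1 (0.30, SE 0.18, adjusted p = 0.468). H2-Ab1 stood at 2585, 2630 and 2427 against 3145, 2961 and 3270 RPKM (0.29, adjusted p = 0.524), and H2-Eb1 at 2708, 2878 and 2525 against 3156, 3148 and 3559 RPKM (0.28, adjusted p = 0.5). The aPD-1 and combination samples were separate for these 3 genes, and the spread of the fit also included the RGD samples, among which Cd74 ranged from 4393 to 8206 RPKM. MHC class I genes differed less: 20 of 21 were higher with a median of 0.15 and 1 with an unadjusted p under 0.05. That median was 0.074 without aPD-1 sample 1, and 0.078 and 0.24 without RGD + aPD-1 samples 1 and 2. H2 genes are closely related and reads may be split between them.

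Targets of interferon gamma were higher in 19 of 21 genes, with a median of 0.32, 3 at an unadjusted p under 0.05 and 7 without overlap. The median was 0.24 to 0.45 with 1 sample left out. No target had an unadjusted p under 0.05 without aPD-1 sample 1, RGD + aPD-1 sample 1 or RGD + aPD-1 sample 3. The most abundant, Gbp2, Irf1 and Cxcl9, are a GTPase of intracellular defense, a transcription factor and a T cell-attracting chemokine. They differed by 0.25, 0.29 and -0.09, with overlapping groups. Type I interferon genes were higher in 18 of 22, with a median of 0.13 that was 0.05, 0.29 and 0.069 without RGD + aPD-1 samples 1, 2 and 3. Of the NF-kB pathway, 14 of 15 genes were higher, with a median of 0.20, 3 at an unadjusted p under 0.05 and 2 without overlap. The 3 became 7 without aPD-1 sample 1, and 0 without aPD-1 sample 3 or RGD + aPD-1 sample 1. For genes of the JAK-STAT pathway the counts were 13 of 14 higher, with a median of 0.12 and 1 at an unadjusted p under 0.05. None of the genes of these lists passed the adjusted test.

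Chemokine genes were mixed, with 10 of 18 higher and a median of 0.27 that was 0.066 without aPD-1 sample 3. Besides Cxcl13, the unadjusted p was under 0.05 for Ccl17 and Ccl22, both ligands of the receptor CCR4 that dendritic cells and activated macrophages make and both named after their values were seen. Ccl17 stood at 3.92, 11 and 4.75 RPKM with aPD-1 and at 38.3, 18.3 and 18.3 RPKM with RGD + aPD-1 (1.81, SE 0.58, adjusted p = 0.164). Ccl22 stood at 8.08, 3.98 and 2.31 against 14.6, 12 and 13.5 RPKM (1.43, SE 0.35, adjusted p = 0.0903). Neither overlapped between the groups. Ccl5, a chemokine for T cells and monocytes, stood at 418, 458 and 309 against 685, 471 and 687 RPKM (0.63, SE 0.36, adjusted p = 0.436), without overlap. Of 11 tested cytokine genes, 9 were higher, with a median of 0.18 and 3 at an unadjusted p under 0.05. The median was 0.32 without aPD-1 sample 2, and 0.10 and 0.35 without RGD + aPD-1 samples 1 and 2.

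Costimulatory genes were higher in 7 of 8 tested, with a median of 0.27 (0.18 without aPD-1 sample 3), and Tnfrsf9 was the member that passed. Icam1, the ligand of the integrin LFA-1, differed by 0.30 (adjusted p = 0.228) and Cd86 by 0.23. Checkpoint receptors and ligands were mixed, with 7 of 12 higher and a median of 0.12 that was -0.021 without aPD-1 sample 1 and 0.048 without RGD + aPD-1 sample 1. Of the 3 most abundant members, Vsir (VISTA) overlapped between the groups and differed by 0.095 (adjusted p = 0.716). The other two were Lag3, which binds MHC class II and is also made by microglia, at 141, 136 and 181 against 220, 198 and 278 RPKM (0.60, SE 0.23, adjusted p = 0.251), and Sirpa, the receptor for CD47, at 313, 336 and 362 against 383, 397 and 379 RPKM (0.20, adjusted p = 0.277). Lag3 and Sirpa were without overlap. Cd274, named for its link to the antibody's target, stood at 59.6, 89.4 and 76.5 against 138, 80.5 and 114 RPKM (0.54, SE 0.24, adjusted p = 0.311), and its groups overlapped through combination sample 2.

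For arginine and nitric oxide metabolism, 8 of 13 genes were higher, with a median of 0.07 that ranged from -0.00023 without aPD-1 sample 1 to 0.12 without RGD + aPD-1 sample 3. Arg1, which breaks arginine down and is known from immunosuppressive macrophages, varied more within groups than between them: 107, 524 and 717 RPKM with aPD-1 and 802, 377 and 228 RPKM with RGD + aPD-1 (0.26, SE 0.66, adjusted p = 0.89). Its sign turned without aPD-1 sample 1 (-0.58) and without RGD + aPD-1 sample 1 (-0.22). The alternative activation list was even, with 7 genes higher and 7 lower and a median of 0.11 that was -0.043 and -0.17 without aPD-1 sample 1 and RGD + aPD-1 sample 1, and 0.18 and 0.28 without RGD + aPD-1 samples 2 and 3. Glucocorticoid-responsive genes were lower in 10 of 14, with a median of -0.26 that became -0.089 without aPD-1 sample 3. The member with the lowest p was Klf9, named after its value was seen, at 1.70, 4.12 and 8.46 against 0.971, 0.698 and 1.06 RPKM (-1.41, SE 0.35, adjusted p = 0.0902). Its groups were separate, but the aPD-1 samples spanned several fold, as for Fkbp5, with sample 3 the highest in both genes.

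The receptors and ligands of the RGD motif themselves showed small differences. Of 9 integrin genes of RGD-binding receptors, 5 were tested, 4 of them higher, with a median of 0.07 and none at an unadjusted p under 0.05. That median was 0.11, 0.042 and 0.021 without aPD-1 sample 1, aPD-1 sample 3 and RGD + aPD-1 sample 2. Itgb5 stood at 301, 307 and 341 RPKM with aPD-1 and at 303, 348 and 351 RPKM with RGD + aPD-1, with a difference of 0.08 (95% interval -0.19 to 0.34). Itgb1 differed by 0.07 (interval -0.08 to 0.22). Both intervals include 0 and leave room for changes of that width in either direction. Of 8 RGD-bearing ligands, 6 were tested and 5 were lower, with a median of -0.14 that became 0.056 without RGD + aPD-1 sample 3, -0.23 without sample 2 of that group, and -0.058 and -0.09 without aPD-1 samples 1 and 2. Spp1, osteopontin, stood at 168, 245 and 179 against 165, 278 and 111 RPKM (-0.17, SE 0.37, interval -0.98 to 0.63), and its difference was 0.14 without RGD + aPD-1 sample 3. Of 22 matrix genes and proteases, 14 were lower, beside 61.1% over all genes, with a median of -0.14. Without RGD + aPD-1 sample 3 they were 11 higher and 11 lower with a median of -0.0031, and without RGD + aPD-1 sample 2 the median was -0.24. Ecm1 was the lower gene with an unadjusted p under 0.05.

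Ribosomal protein genes of the cytosol were lower as a list. Of 77 tested, 76 were lower, 65 with an unadjusted p under 0.05 (11% of all genes) and 58 without overlap (15.3% of all genes), and none passed the adjusted test. The median was -0.22, against -0.04 over all genes, and -0.16 with 40 genes at an unadjusted p under 0.05 under median-of-ratios scaling. Rplp1, one of the most abundant, stood at 1910, 2070 and 1896 RPKM with aPD-1 and at 1585, 1721 and 1757 RPKM with RGD + aPD-1 (-0.21, SE 0.062, adjusted p = 0.13). Rpl14 stood at 258, 253 and 241 against 177, 205 and 198 RPKM. Both were separate between the groups. Genes of oxidative phosphorylation were lower in 70 of 75 (61.1% of all genes), with a median of -0.11. Of these, 16 had an unadjusted p under 0.05 (11% of all genes). Under median-of-ratios scaling the median was -0.066 and the count 6 of 75, near the share of 6.92% over all genes. Ribosomal protein genes have many processed pseudogenes that could take reads. Cell cycle genes were lower in 30 of 31, with a median of -0.20, none at an unadjusted p under 0.05 and 7 without overlap (15.3% of all genes). The median was -0.33 without aPD-1 sample 2, and without aPD-1 sample 3 it was -0.093, with 19 lower.

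**Figure D3:**
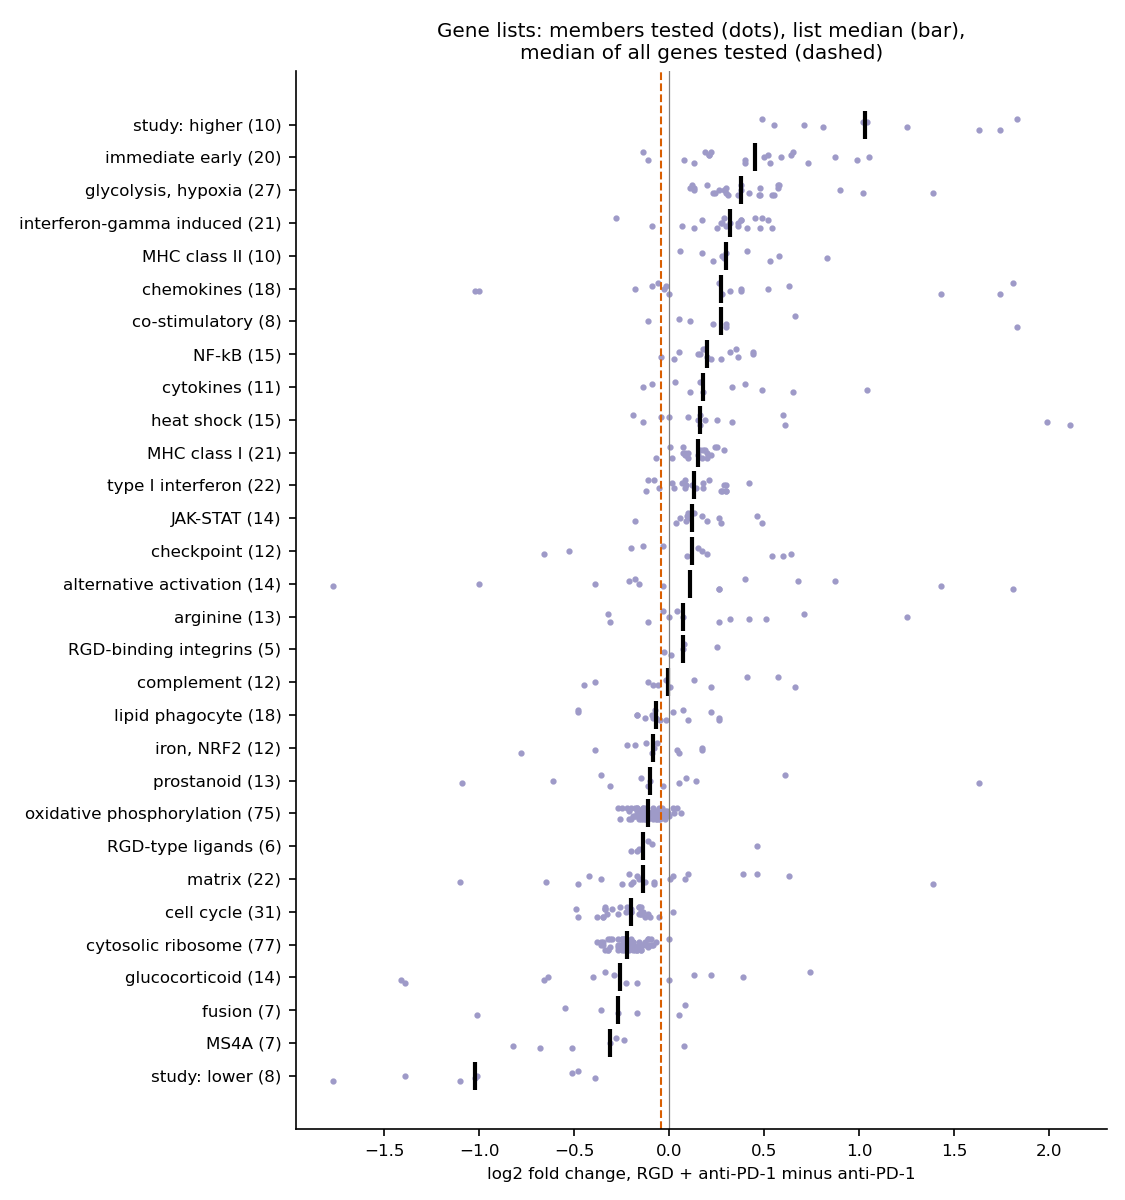
Differences (log2(RPKM + 1), RGD + aPD-1 minus aPD-1) of the tested genes of each list (points, 1 per gene) with a bar at the median of the list, the number of tested genes in parentheses, and a dashed line at the median of all 9741 genes tested. The glycolysis list has a median of 0.38, immediate early genes 0.45, MHC class II 0.30 and ribosomal proteins -0.22.

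Whether the peptide changed gene expression to another extent with the antibody than without it was tested as an interaction, the difference (RGD + aPD-1 minus aPD-1) minus (RGD minus vehicle). No gene passed an adjusted p of 0.05 (limma), with 225 genes higher (2.31%) and 568 lower (5.83%) at an unadjusted p under 0.05. Without RGD + aPD-1 sample 2, 3 genes passed. For RGD against vehicle, 63 genes passed the adjusted test, and 782 genes were higher (8.03%) and 641 lower (6.58%) at an unadjusted p under 0.05. With limma on the RGD and vehicle samples alone no gene passed, nor with 1 residual degree of freedom less. The effects of the peptide in both settings rest on separate samples.

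The MHC class II list had opposite signs in the 2 settings. Its median was -0.33 for RGD minus vehicle, with 6 of 10 genes lower at an unadjusted p under 0.05 (6.58% of all genes), and 0.30 with the antibody. The median interaction was 0.72, with 7 of 10 genes at an unadjusted p under 0.05 (2.31% of all genes) and none past the adjusted test. For Cd74 the values were 9277, 8651, 7725 and 7443 RPKM in vehicle and 6011, 8206, 8040 and 4393 RPKM in RGD, an interaction of 0.65 (SE 0.24, unadjusted p = 0.0184, adjusted p = 0.588). RGD sample 4 was the lowest, and without it the median of the list was -0.24 for RGD minus vehicle and 0.54 for the interaction. Beside these values, the marker lists also differed between RGD and vehicle, with medians of 0.46 for microglia (5 of 12 genes higher at an unadjusted p under 0.05), 0.49 for monocytes and 0.44 for border-associated macrophages, and their part in the result was not tested.

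Immediate early genes had a median of -0.07 for RGD minus vehicle and an interaction of 0.52, with 7 of 20 at an unadjusted p under 0.05. The glycolysis list had 0.04 and 0.29, with 11 of 27, and the interaction was 0.20 without aPD-1 sample 3. The genes the study names as higher had a median of -0.04 for RGD minus vehicle and an interaction of 0.99, with 8 of 10 at an unadjusted p under 0.05. Over all genes, 2.31% had a higher interaction at that p. The study chose its genes on RGD + aPD-1 against aPD-1, a part of the interaction, so their median is not independent evidence. The same holds for Tnfrsf9, Nr4a2 and Ecm1, named for that difference. For Tnfrsf9 the interaction was 1.98 (SE 0.36, unadjusted p = 8.45e-05, adjusted p = 0.281), for Nr4a2 1.28 (adjusted p = 0.281) and for Ecm1 -1.20 (adjusted p = 0.588).

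Ribosomal protein genes were lower with the peptide in both settings. For RGD minus vehicle the median was -0.29, with 74 of 77 genes lower at an unadjusted p under 0.05, and the interaction had a median of 0.06, with 2 genes at an unadjusted p under 0.05. Rpl14 stood at 411, 377, 401 and 388 RPKM in vehicle and at 324, 324, 300 and 303 RPKM in RGD (-0.33, adjusted p = 0.0344), beside -0.38 with the antibody. Oxidative phosphorylation genes had a median of -0.12 for RGD minus vehicle, with 32 of 75 lower at an unadjusted p under 0.05 (6.58% of all genes), and an interaction of 0.02. Cell cycle genes had 0.13 for RGD minus vehicle and an interaction of -0.37, with 1 gene at an unadjusted p under 0.05.

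**Figure D4:**
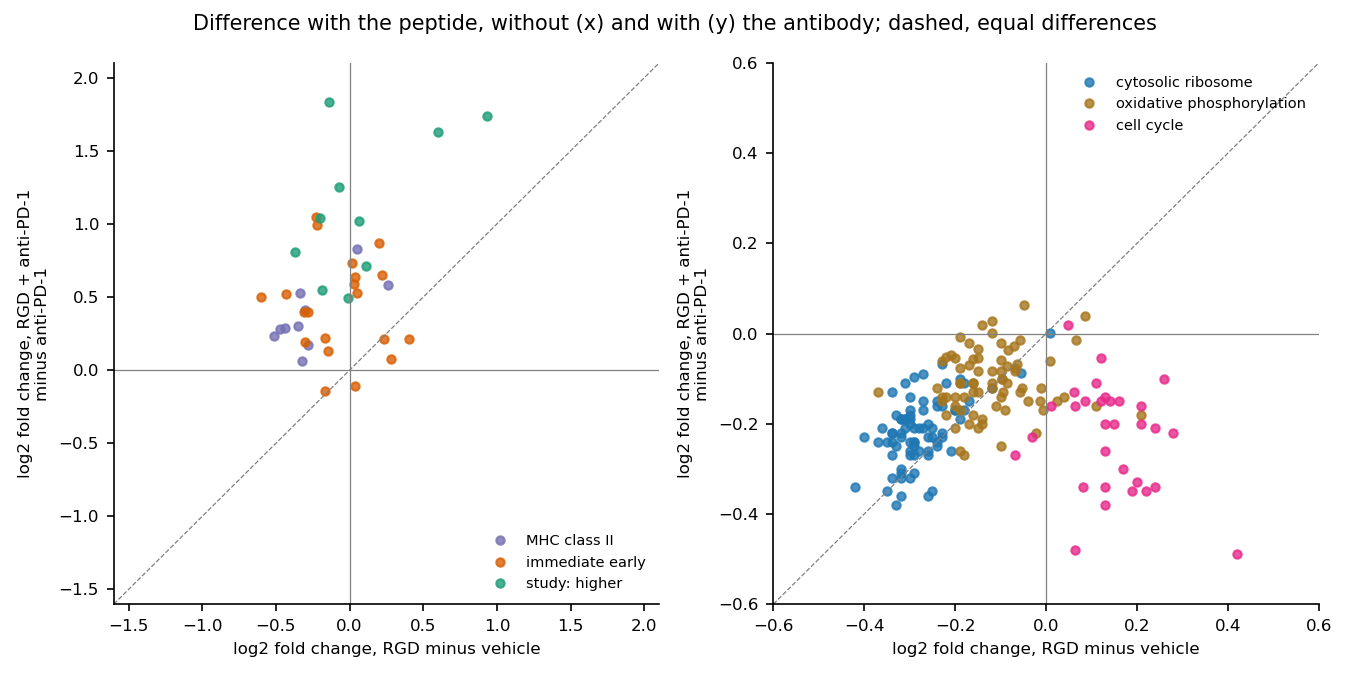
Effect of the peptide without the antibody (horizontal, log2(RPKM + 1), RGD minus vehicle) against its effect with the antibody (vertical, RGD + aPD-1 minus aPD-1), with 1 point per tested gene and a dashed line where both are equal. Left, MHC class II, immediate early and study-named higher genes, most of them above the dashed line. The study-named genes were chosen on the vertical difference. Right, on axes of its own, ribosomal, oxidative phosphorylation and cell cycle genes, with list medians of -0.29 (horizontal) and -0.22 (vertical) for the ribosomal genes.

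Marker genes of other cells that the sort could hold moved with some of these results, and their part was not tested. All 12 microglia markers were higher with RGD + aPD-1, 3 with an unadjusted p under 0.05, with a median of 0.35. Their summed level was 1941 to 2856 RPKM with aPD-1, lowest in sample 1, and 2688 to 2831 RPKM with RGD + aPD-1. Cx3cr1, the fractalkine receptor, stood at 315, 360 and 386 against 434, 446 and 442 RPKM (0.32, SE 0.10, adjusted p = 0.164). P2ry12, a receptor for ADP that marks homeostatic microglia, was named after its value was seen and stood at 89.6, 90.0 and 112 against 161, 125 and 143 RPKM (0.55, adjusted p = 0.162). Without aPD-1 sample 1 the median of the list was 0.18. Monocyte markers had a median of 0.12, with summed levels of 615 to 1286 against 792 to 1091 RPKM. Without aPD-1 sample 1, RGD + aPD-1 sample 2 or RGD + aPD-1 sample 3 that median was 0.25, 0.21 or 0.22. Markers of border-associated macrophages were lower in 6 of 7 tested (median -0.32, sums 236 to 289 against 166 to 292 RPKM). This median was -0.047 without aPD-1 sample 3, -0.046, -0.67 and -0.20 without RGD + aPD-1 samples 1, 2 and 3.

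Neutrophil markers were lower in 8 of 9 tested (61.1% of all genes), with a median of -0.65 and sums of 266 to 415 against 201 to 339 RPKM. Of the 9, 1 was lower at an unadjusted p under 0.05, near the share of 11% over all genes. The median was -0.38, -0.33 and -1.13 without aPD-1 samples 1, 2 and 3. Of 11 dendritic cell markers, 5 reached the level tested and 4 of these were higher, with a median of 0.86. The lower one was Batf3 (-0.28). With a mean of at least 5 RPKM required, 2 were left, 1 higher and 1 lower, with a median of 0.29. Sums of the 11 markers were 37.9 to 62.6 RPKM with aPD-1 and 75.5 to 85.3 RPKM with RGD + aPD-1 and did not overlap. The sum was carried by Fscn1, an actin-bundling protein of mature dendritic cells, at 28.0, 22.7 and 21.1 against 43.7, 41.4 and 47.2 RPKM (0.86, SE 0.25, adjusted p = 0.13), and by Ccl22. Ccr7, the receptor that guides dendritic cells to lymph nodes, stood at 3.59, 2.96 and 1.44 against 4.43, 5.92 and 5.99 RPKM (0.86, adjusted p = 0.0902). The markers Xcr1 and Clec9a, which define cross-presenting dendritic cells, were at 0.0146 to 0.0646 and 0.781 to 0.824 RPKM with aPD-1 and at 0.0249 to 0.167 and 1.13 to 1.54 RPKM with RGD + aPD-1. Ccl22, Ccr7, Fscn1 and Batf3 are members of the dendritic cell list, so their levels are parts of its sum and not separate from it. Ccl17, which also stood higher, is not a member, and the chemokine list shares Ccl22.

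NK cell markers were higher in 8 of 8 tested, 1 with an unadjusted p under 0.05, with a median of 0.89. Without aPD-1 sample 3 the median was 0.12, with 5 higher and 3 lower. Only 7 reached the level tested without aPD-1 sample 1, RGD + aPD-1 sample 2 or RGD + aPD-1 sample 3. With a mean of at least 5 RPKM required, 2 were left, with a median of 1.06. The sum of the NK markers was 64.7, 78.8 and 5.68 RPKM in aPD-1 samples 1, 2 and 3 and 34.5, 99.3 and 101 RPKM in RGD + aPD-1 samples 1, 2 and 3. Gzmb (granzyme B) stood at 11.9, 22.2 and 1.08 against 8.09, 18.8 and 20.5 RPKM (0.88, SE 0.72, adjusted p = 0.603), and Prf1 (perforin) at 7.15, 5.57 and 0.23 against 3.47, 9.38 and 10.1 RPKM (0.99, adjusted p = 0.428). Both are cytotoxic effectors, and both were lowest in aPD-1 sample 3, without which the difference of Gzmb was -0.14. Activated NK cells can express Tnfrsf9. Beside these NK sums, it stood at 1.19, 2.75 and 1.22 RPKM in aPD-1 samples 1, 2 and 3. In RGD + aPD-1 samples 1, 2 and 3 it stood at 13.7, 4.86 and 8.56 RPKM. The part of NK cells in the level of Tnfrsf9 was not tested. None of the 12 T cell markers reached the level tested, with sums of 1.90 to 9.5 against 6.53 to 11.4 RPKM. Markers of B cells summed to 40.5 to 79.9 against 80.0 to 93.5 RPKM, mostly from Ighm, and those of oligodendrocytes to 49.5 to 51.4 against 47.8 to 53.2 RPKM. Of 7 tested oligodendrocyte markers, 4 were higher and 3 lower, with a median of 0.056. The 3 lower ones had an unadjusted p under 0.05 (11% of all genes) and no overlap (15.3% of all genes). None passed the adjusted test. Astrocyte and neuron markers summed to 6.65 to 10.9 against 7.47 to 10 RPKM, and endothelial markers to 9.65 to 22 against 14.3 to 21.3 RPKM.

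**Figure D5:**
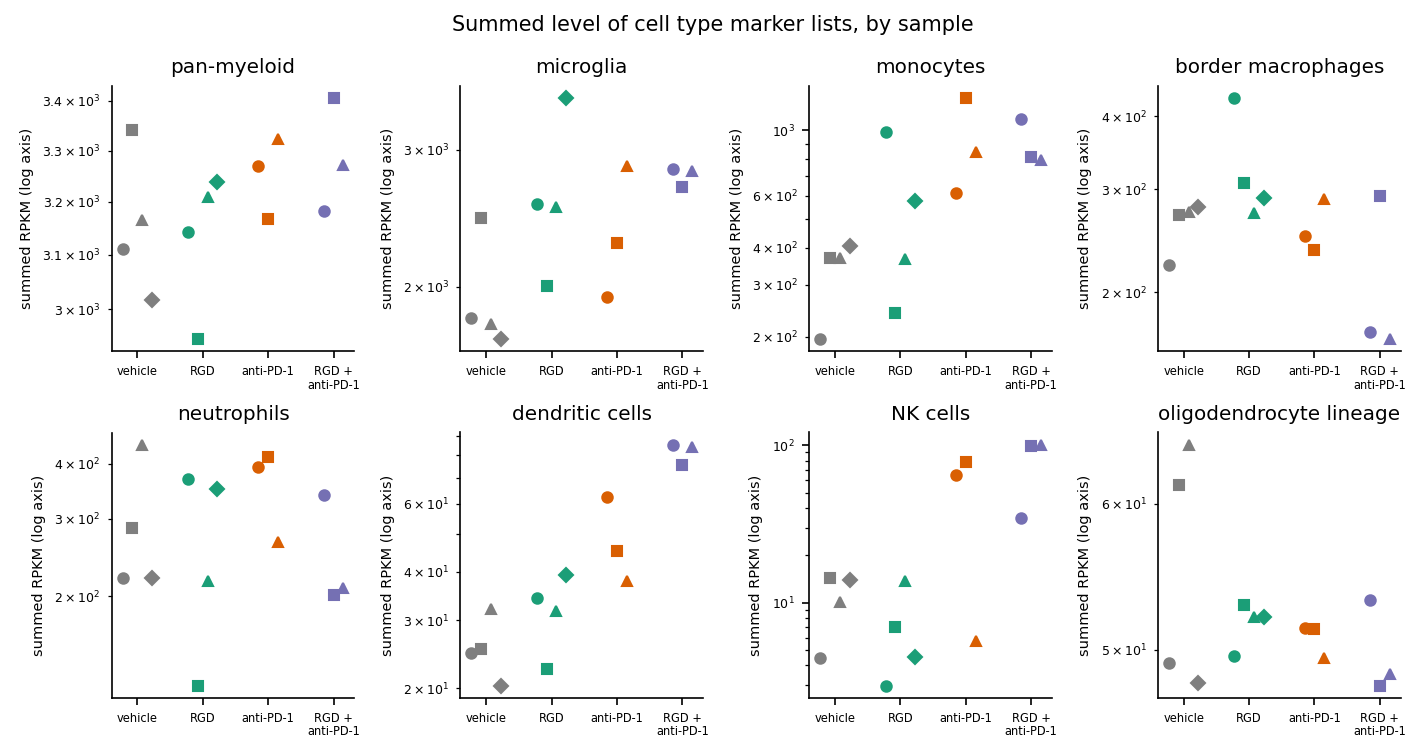
Summed RPKM of each marker list in each CD11b+ sample (points; log axis that differs between panels; circle, square, triangle and diamond mark samples 1 to 4), by group: vehicle and RGD (n = 4 each), aPD-1 and RGD + aPD-1 (n = 3 each). NK cell markers sum to 5.68 RPKM in aPD-1 sample 3 and to 34.5 to 101 RPKM in RGD + aPD-1.

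The study also names 14 further genes for RGD + aPD-1 against vehicle, chosen on these samples, with Gpnmb, a membrane glycoprotein of tumor macrophages, named as lower and the rest as higher. Of 13 that were tested here against aPD-1, 10 were higher and 3 lower, Gpnmb (-0.08) among the latter, with a median of 0.28 and 2 at an unadjusted p under 0.05 (Icam1 and Ccr7). Without aPD-1 sample 3 the median was 0.11, with 9 higher, 4 lower and 1 at an unadjusted p under 0.05. The level of Ccl5 was 162, 266, 128 and 101 RPKM in vehicle, below the 309 to 458 RPKM of the aPD-1 group. For Nos2 the vehicle samples stood at 4.98, 2.67, 3.18 and 3.59 RPKM and the RGD samples at 5.76, 2.12, 2.92 and 3.13 RPKM, below every sample that had received the antibody. Il2rb, the beta chain of the IL-2 receptor, stood at 5.29, 3.47 and 0.195 against 1.97, 6.30 and 7.67 RPKM (0.83, SE 0.51, adjusted p = 0.48), low in aPD-1 sample 3 like the other NK markers.

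Smaller lists were mixed. Genes of the Ms4a family of membrane proteins were lower in 6 of 7, with a median of -0.31 and an interaction of -0.52. Of these, 3 had an unadjusted p under 0.05 (11% of all genes). Genes of cell fusion and osteoclasts were lower in 5 of 7 (median -0.27), with a median of 0.05 and 3 lower without RGD + aPD-1 sample 3, and of -0.64, -0.44 and -0.42 without aPD-1 sample 1, RGD + aPD-1 sample 1 and RGD + aPD-1 sample 2. Those of iron and NRF2 were lower in 8 of 12 (median -0.08, -0.13 without aPD-1 sample 3 and -0.039 without RGD + aPD-1 sample 3). In the latter list Hmox1, which degrades heme, stood at 220, 218 and 188 against 81.4, 150 and 143 RPKM (-0.78, SE 0.38, adjusted p = 0.357), without overlap. Prostanoid and leukotriene genes were lower in 8 of 13 (median -0.10, and -0.16 to -0.023 without single samples, the last without aPD-1 sample 3), with Ptgs2 the member of the largest difference. Complement genes were even, 6 higher and 6 lower (-0.11 without aPD-1 sample 1, and 0.11 and 0.021 without aPD-1 sample 3 and RGD + aPD-1 sample 1). Leukocyte integrins were higher in 5 of 7 (median 0.09, 0.051 without aPD-1 sample 2 and 0.0067 without aPD-1 sample 3). Lipid and phagocyte genes were lower in 12 of 18 (median -0.07, from -0.17 without RGD + aPD-1 sample 2 to 0.03 without RGD + aPD-1 sample 3). Beside 61.1% lower over all genes, the counts of the iron, prostanoid and lipid lists are near the background.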

How the data were processed

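CD11b+ cells were sorted from tumor-bearing hemispheres and sequenced as strand-specific poly-A libraries. Per the labels and the study's methods, Trimmomatic, STAR (mm10), Picard and HTSeq 0.11.1 were used in turn for trimming, alignment, marking of duplicates and counting per gene. The authors then normalized the counts and deposited 1 table of 54513 genes, whose values were read as RPKM plus a constant of 2, because genes without signal hold exactly 2, and because the rest, multiplied by exonic length, summed to 987775 to 1006869 in each sample. After the constant was taken off, 5.12 to 7.76% of values were below 0, and the differences between replicates spanned 9 of 10 possible dimensions. A further correction by the authors could produce this, the step is not given in the sources used here, and limma was also run with 1 residual degree of freedom less. Depth is unknown, so no counting error can be given.

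Names were matched to GENCODE (98.9%), and 21912 protein-coding genes were kept, of which 9741 had a mean of at least 1 RPKM. log2(RPKM + 1) of 14 samples was fitted with limma 3.58.1 (R 4.3.3, trend, 4 group means, no block, two-sided). The study's NOISeq was not run. Simulated data with 200 changed genes gave 189 recovered genes at a log2 change of 1 (9 false) and 120.5 at 0.5 (6 false). With no change there were 0 calls. All of these are medians of 10 rounds. The simulated noise was independent between genes and samples, with the same spread in every group. The real replicates spanned 9 of 10 dimensions, so these rates need not hold for the data themselves. Genes were named if among the 15 most changed in each direction past the threshold, filled up in order of p from genes without overlap, if named by the study, or if among the 3 most abundant of a list. Lists and members were chosen with earlier results of these data known. Replicates are separate mice. The sample numbers were not taken as pairs: 0 of 3 pairs of aPD-1 and RGD + aPD-1 samples had a residual correlation above 0.1 (-0.084 to 0.051), and 3 of 19 same-numbered pairs over all 4 groups did (RGD with RGD + aPD-1 samples 2 and 3, at 0.28 and 0.366, and vehicle with aPD-1 sample 1, at 0.244). Pseudocount, filter, scaling, samples fitted, block and omission of each sample were varied. Promoter windows are RefSeq sequences of GRCm38.p6. Sample 4 of either antibody group was not analysed here, and a few genes that the rule names are not reported here.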

Additional observations from a re-analysis of the deposited data

Results flagged for a closer look

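Of 146 vehicle and RGD groups of 4 samples examined for the genes named above, 4 held a sample whose gap to the nearest other sample, as a share of the range of the group, was over Dixon's critical value. Chance alone gives about 1 in 20 such groups. For Il1b the share was 0.873, with vehicle sample 1 at 226 RPKM and the others at 104 to 119 RPKM. For Fkbp5 it was 0.879, with RGD sample 1 at 93.5 RPKM and the others at 50.2 to 55.5 RPKM. For Tpi1 it was 0.885, with RGD sample 2 at 61.8 RPKM and the others at 75.4 to 77.1 RPKM. For Vsir it was 0.891, with RGD sample 2 at 194 RPKM and the others at 249 to 256 RPKM. These samples enter the comparison of RGD + aPD-1 with aPD-1 only through the shared spread. Groups of 3 were not examined in this way.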

How the results depend on the processing

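The number of genes called between RGD + aPD-1 and aPD-1 was small and moved with most settings. It was 183 at an adjusted p under 0.1, 1 with a log2 change of at least 1 required, 14 with a pseudocount of 5, 20 with no filter, 12 with a mean of at least 5 RPKM, 2 over all named genes, 0 on the groups compared alone and 1 with 1 residual degree of freedom less, and it ranged from 0 to 26 when 1 sample was left out (26 without RGD + aPD-1 sample 2; 0 without aPD-1 sample 3 or RGD + aPD-1 sample 1 or 3). For RGD against vehicle, 63 became 144, 2, 34 (no filter), 17 (median-of-ratios scaling), 30 (upper quartile scaling), 0 (groups compared alone) and 0 (1 residual degree of freedom less), and 0 to 1 when 1 sample was left out. The interaction gave 0 to 3 when 1 sample was left out, 3 without RGD + aPD-1 sample 2, and needs all 4 groups, so it has no fit on fewer. With the replicate number as a block 0 genes were called in both comparisons, and the numbers were not taken to pair the samples. The causes were not tested. Of 73 named genes, 5 changed sign when 1 sample was left out: Spp1 (-0.52 to 0.14, positive without combination sample 3), Cxcl9 (-0.31 to 0.046, with 0.046 and 0.018 without aPD-1 sample 1 and combination sample 1), Arg1 (-0.58 to 0.79, with -0.58 and -0.22 without the same samples) Gpnmb (-0.29 to 0.12, with 0.03 and 0.12 without aPD-1 sample 3 and combination sample 3) and Gzmb (-0.14 to 1.60, negative without aPD-1 sample 3). Of 687 list medians under alternatives, 675 moved by less than the spread between replicates. Read depth is unknown.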
